A study of Mus musculus with 74 samples.

Results

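The genes studied here were the 7 of the creatine cycle in mouse fat cells: the creatine kinases Ckb, Ckmt1 and Ckmt2, the creatine transporter Slc6a8, the synthesis enzymes Gatm and Gamt, and the phosphatase Alpl. They were chosen by name for their known part in creatine metabolism, and all 7 were found among the 55487 genes of the RNA table. By the gene name given in the deposited annotation, they also accounted for 20 of 42572 accessible regions in brown adipose tissue (BAT), 10 of 25050 in inguinal white adipose tissue (WAT) and 2 of 10368 BMAL1 peaks.

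Creatine is made from arginine and glycine by Gatm, which forms guanidinoacetate, and Gamt, which methylates it, and it enters cells through Slc6a8. Creatine kinases pass phosphate between ATP and creatine, Ckb in the cytosol of brain and other tissues, Ckmt1 in mitochondria of many tissues and Ckmt2 in mitochondria of striated muscle. In thermogenic fat of mice, Ckb and Alpl (tissue-nonspecific alkaline phosphatase) have been placed in a cycle in which phosphocreatine is made and then hydrolysed, so that ATP is spent as heat.

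The mice carried Adiponectin-Cre, which is active in adipocytes, and NuTRAP, a Cre-dependent allele that labels nuclei and puts GFP on ribosomes, and both depots and all times shared this genotype. Tissue was taken at Zeitgeber time (ZT, hours after lights on) 1, 5, 9, 13, 17 and 21. RNA bound to the tagged ribosomes was pulled down with an antibody to GFP and sequenced (17 libraries of BAT, 18 of WAT; n = 3 at each time, but n = 2 for BAT at ZT17). Nuclei sorted from the same depots gave 18 ATAC-seq libraries each. BMAL1 ChIP-seq, which maps binding of a core clock transcription factor, used 2 libraries of inguinal WAT of C57BL6J mice, which lack the tag, at ZT4. No label ties a replicate to an animal of its own, and none gives age or sex; p-values below therefore speak to the spread among libraries, which may be technical.

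Depth per RNA library was 4980147 to 46274438 counts (BAT) and 1301522 to 6481154 counts (WAT). ATAC libraries had between 3959384 and 12811242 tags in regions for BAT, and between 1623006 and 5294923 for WAT. The depots differed in what else the pulldown carried. Mitochondrially encoded genes took 0.126% to 2.25% of BAT counts and 0.686% to 27.6% of WAT counts. Ribosomal RNA loci took 0.813% to 4.64% of BAT counts and 5.26% to 66.0% of WAT counts, with 3 WAT libraries (ZT5 replicate 3, ZT9 replicate 3 and ZT17 replicate 2) above the others. All 6 adipocyte markers were detected in every library. Of the markers of other cell types that passed the filter on low counts, 4 of 4 for fibroblasts, 3 of 3 for endothelium and 2 of 3 for macrophages were lower in BAT, and 4 of 8 for skeletal muscle were higher in BAT. Of all 10999 genes tested, 2663 were called lower in BAT and 2541 higher.

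The promoters of Ckb and Gamt are shown because they belong to the most abundant kinase and to the only member whose start site lay in an accessible region of both depots. Each runs from 250 bases before to 50 after the start of the gene in RefSeq (GRCm38.p6, the mm10 build), 5′ to 3′ on the minus strand. In the Ckb promoter (chr12:111672289-111672588), capitals mark a TATAAA and the CCAAT matches. In the Gamt promoter (chr10:80260963-80261262), capitals mark the 119 bases that lie in the BAT accessible region.
Ckb: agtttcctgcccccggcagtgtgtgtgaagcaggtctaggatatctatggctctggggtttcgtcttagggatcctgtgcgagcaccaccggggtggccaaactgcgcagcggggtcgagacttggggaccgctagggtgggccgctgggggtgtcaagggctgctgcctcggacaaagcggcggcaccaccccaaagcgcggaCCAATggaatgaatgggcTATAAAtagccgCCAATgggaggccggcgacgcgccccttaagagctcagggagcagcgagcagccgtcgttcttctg
Gamt: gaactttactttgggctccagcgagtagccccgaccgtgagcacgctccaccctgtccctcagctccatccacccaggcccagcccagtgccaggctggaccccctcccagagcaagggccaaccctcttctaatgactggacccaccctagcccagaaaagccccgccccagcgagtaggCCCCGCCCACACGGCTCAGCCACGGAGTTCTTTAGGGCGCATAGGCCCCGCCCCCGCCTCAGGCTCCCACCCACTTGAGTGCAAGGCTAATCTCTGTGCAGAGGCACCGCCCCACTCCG
The TATAAA of Ckb begins 28 bases before the start (position -28) and its CCAAT matches at -46 and -16, and Gamt has neither. On either strand, 13.6% of 32851 RefSeq promoters hold TATAAA and 37.4% hold CCAAT; these motifs were looked for after the Ckb sequence had been read. Promoters of 6 of the 7 members were present in the RefSeq table, 8 in all since Ckmt1 and Alpl have 2 each; Slc6a8 was not among them. None of the 8 holds the E-box CACGTG (7.15% of all promoters), the cAMP response element TGACGTCA (1.79%) or its shorter core TGACGT (7.51%). The element AAGGTCA, bound by estrogen-related receptors (4.72% of all promoters), was found once, in a Ckmt1 promoter at -179.

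Ckb was higher in BAT, and per length it was the most abundant of the members with a TPM value in each depot (all but Ckmt1 in BAT; Ckb, Slc6a8, Gatm and Gamt in WAT). In BAT it ranged from 140.0 to 923 CPM (counts scaled to a common library total), with a median of 605, and in WAT from 47.9 to 266 CPM, with a median of 102. The ranges overlapped: BAT ZT21 replicate 3, at 140.0 CPM, and ZT1 replicate 3, at 247 CPM, lay below the highest WAT library. Ckb averaged 563 ± 233 CPM over the 17 BAT libraries and 121 ± 61.2 CPM over the 18 WAT libraries (± SD). With time as a factor, Ckb was higher in BAT by 2.27 ± 0.22 on the log2 scale (± SE, adjusted p = 8.34e-12). A gene was called between depots at an adjusted p under 0.05 and at least a 2-fold change, which 47.3% of the 10999 genes tested met, 23.1% in the direction of BAT.

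Per length, as TPM in the authors' deposited tables, Ckb reached 317 ± 93.2 in BAT (SD, n = 17) and 76.7 ± 30.9 in WAT (SD, n = 18). In the same tables Ucp1, the uncoupling protein of brown fat, had 669 ± 198 TPM in BAT and 34.0 ± 25.5 TPM in WAT. By these means Ckb stood below Ucp1 in BAT and above it in WAT, and the difference was not tested. Single WAT libraries went the other way, with Ucp1 above Ckb. These were ZT5 replicate 1 (69.7 against 56.0 TPM), ZT5 replicate 3 (48.4 against 46.0) and ZT13 replicate 1 (109 against 70.8). Among the members, Gamt followed Ckb with 16.6 ± 5.31 TPM in BAT and 11.1 ± 5.89 TPM in WAT.

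**Figure D1:**
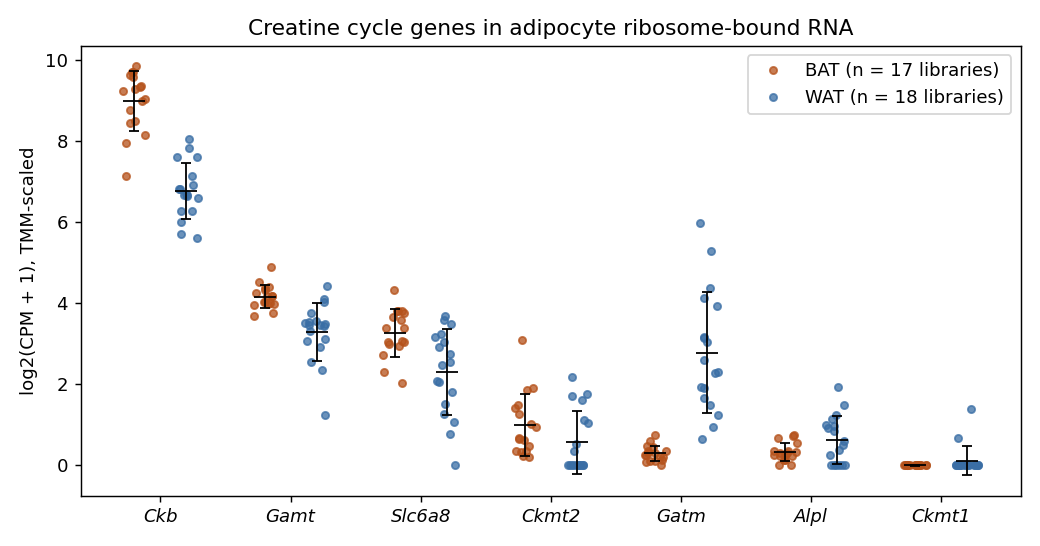
Level of each creatine cycle gene in every RNA library, as log2(CPM + 1) after TMM scaling, with BAT left of WAT; bars are mean ± SD over 17 BAT and 18 WAT libraries. Ckb, Gamt and Slc6a8 have higher means in BAT, Gatm is high in WAT and near 0 in BAT, and Ckmt1 lies at or near 0 throughout.

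The transporter and the second synthesis enzyme were higher in BAT by less than the 2-fold threshold. Slc6a8 ranged from 3.12 to 19.2 CPM in BAT, with a median of 9.54, and from 0 to 11.99 CPM in WAT, with a median of 4.77. Its difference was 0.99 ± 0.31 log2 (adjusted p = 0.00445). Gamt ranged from 11.9 to 28.8 CPM in BAT, with a median of 17.1, and from 1.37 to 20.4 CPM in WAT, with a median of 10.1. Its difference was 0.81 ± 0.17 log2 (adjusted p = 4.04e-05). For both genes the ranges of the depots overlapped. All 3 members tested were thus higher in BAT by adjusted p alone, as were 38.4% of all genes tested, and the other 4 did not pass the filter over depots.

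Slc6a8 lay at the edge of the fold threshold. It was called when TMM scaling left out mitochondrial and ribosomal RNA genes (1.001), without the 3 WAT libraries richest in ribosomal RNA (1.15), with limma voom and library weights (1.20), and when any 1 of 18 libraries was left out (1.002 to 1.10). In each depot these were ZT1 replicate 1, ZT5 replicates 1 and 3, ZT9 replicates 1, 2 and 3, ZT13 replicate 3, ZT17 replicate 2 and ZT21 replicate 2.

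Gatm went the other way. It ranged from 0 to 0.693 CPM in BAT, with a median of 0.202, and from 0.571 to 62.5 CPM in WAT, with a median of 4.53. All but the lowest WAT library, ZT9 replicate 3 with 1 count, lay above every BAT library. BAT held 55 Gatm counts over 17 libraries and WAT 778 over 18. The gene did not pass the filter over depots, so its difference has no fit across genes. In a 2-sided permutation test of log2(CPM + 1) that exchanged depots within each time (100000 resamples), the mean difference was -2.49 (p = 1e-05, the smallest the resamples can give). This test was run for Gatm and Ckmt2 alone, without adjustment and with no share over all genes beside it. For Gatm it restates the separation of libraries described above and adds no separate evidence.

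With genes kept by depot and time, an alternative added after seeing the data, Slc6a8 (1.24 ± 0.30, adjusted p = 0.000396) and Gamt (1.04 ± 0.17, adjusted p = 9.07e-07) passed the 2-fold threshold and Ckb had 2.49 ± 0.23, where 56.3% of 14969 genes were called and their median was -0.12 log2. In these tissue pulldowns, fewer cells of a type and less RNA per cell cannot be told apart. Beside the Gatm difference, the summed fibroblast markers reached 5.76 to 42.0 CPM in BAT and 50.6 to 745 CPM in WAT. Mean summed markers were also higher in WAT than in BAT for macrophages (98.3 against 9.34 CPM), endothelium (54.4 against 7.62) and lymphocytes (23.8 against 0.166). So were those of erythroid cells (273.2 against 126) and epithelium (2.86 against 0.300). Skeletal muscle (120.1 against 257.5) and nerve markers (110.5 against 673.3) were lower in WAT. Of the 6 fibroblast markers, Dcn, Pi16 and Col3a1 had counts in every library. Lum had none in 1 library of each depot, and Pdgfra in 1 of BAT and 3 of WAT. Dpp4 had no count in 12 of 17 BAT and 3 of 18 WAT libraries. Across the 18 WAT libraries the log2 levels of Gatm and of the fibroblast share had a Pearson r of 0.32 (permutation p = 0.19, adjusted over 15 relations 0.31) and a Spearman rho of 0.43 (permutation p = 0.077, adjusted 0.13), and r was 0.36 without the 2 libraries farthest from the median share. With the mitochondrially encoded share, Gatm had an r of 0.45 (permutation p = 0.06, adjusted 0.13) and a rho of 0.58 (permutation p = 0.014, adjusted 0.031), with r = 0.42 without the 2 farthest libraries and 0.21 within times. The part of other cells in the Gatm difference was not tested.

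The mitochondrial kinases and Alpl were scarce. Ckmt2 ranged from 0.164 to 7.50 CPM in BAT and from 0 to 3.55 CPM in WAT, where 10 of 18 libraries had no count. Its difference did not pass the same permutation test (0.43 in log2(CPM + 1), p = 0.11). The library with the most Ckmt2, BAT ZT13 replicate 3, also had the most RNA of 8 skeletal muscle markers, 1201 CPM in a BAT range of 47.7 to 1201 CPM, beside 20.7 to 558 CPM in WAT; their part in the Ckmt2 values was not tested. Alpl ranged from 0 to 0.693 CPM in BAT and from 0 to 2.85 CPM in WAT, with 54 counts in all in BAT and 42 in WAT, and passed neither filter. Ckmt1 had 1 count in 1 of 17 BAT libraries and 3 counts in 2 of 18 WAT libraries, so that its expression was not detectable at this depth in the other 32 libraries. The Ckmt1 locus overlaps the annotated genes Gm33947 and Strc, and the sources used here do not give how such overlaps were counted.

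Genes that supply or surround the cycle were compared by lists. Of 10 genes reported here for other energy transfer between ATP pools, 8 were called higher in BAT and none lower. Of all genes tested, 23.1% were called higher. The median of the 10 was 2.01 log2 against 0.04 over all genes tested. The 8 were led by Ak1, a cytosolic adenylate kinase (3.24 ± 0.16), Phospho1, a phosphatase of phosphocholine and phosphoethanolamine (2.91 ± 0.27), the ADP/ATP carrier Slc25a4 (2.12 ± 0.09) and the outer membrane channel Vdac3 (2.03 ± 0.13). Ckm, the muscle creatine kinase, is also a muscle marker and had 45.0 ± 54.4 CPM in BAT and 35.9 ± 63.0 CPM in WAT (0.50 ± 0.55, adjusted p = 0.414).

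Of 16 genes reported here for arginine, glycine and methyl groups, 9 were tested, with 3 called higher in BAT and a median of 0.38 log2. Of all genes tested, 23.1% were called higher in BAT, so this count says little about the list. Shmt1 (2.79 ± 0.20) and Shmt2 (1.39 ± 0.27), which interconvert serine and glycine, and Mat2b, a subunit of the enzyme that makes S-adenosylmethionine (1.90 ± 0.11), were higher. Ass1, argininosuccinate synthase, and Gnmt did not pass the filter and were named after their values were seen. Ass1 had 0.0593 ± 0.0927 CPM in BAT and 7.76 ± 7.07 CPM in WAT, the direction of Gatm, with a WAT range of 0 to 18.99 CPM. Gnmt went the other way, with 0.465 ± 0.270 CPM in BAT and 0.00803 ± 0.0341 CPM in WAT. Of 12 thermogenesis genes, 11 were tested and 8 were called higher in BAT, beside 23.1% of all genes tested. The 8 were led by Ucp1 (4.67 ± 0.31), Cox8b (4.33 ± 0.25), Cidea (4.25 ± 0.25) and Cox7a1 (4.17 ± 0.29).

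**Figure D2:**
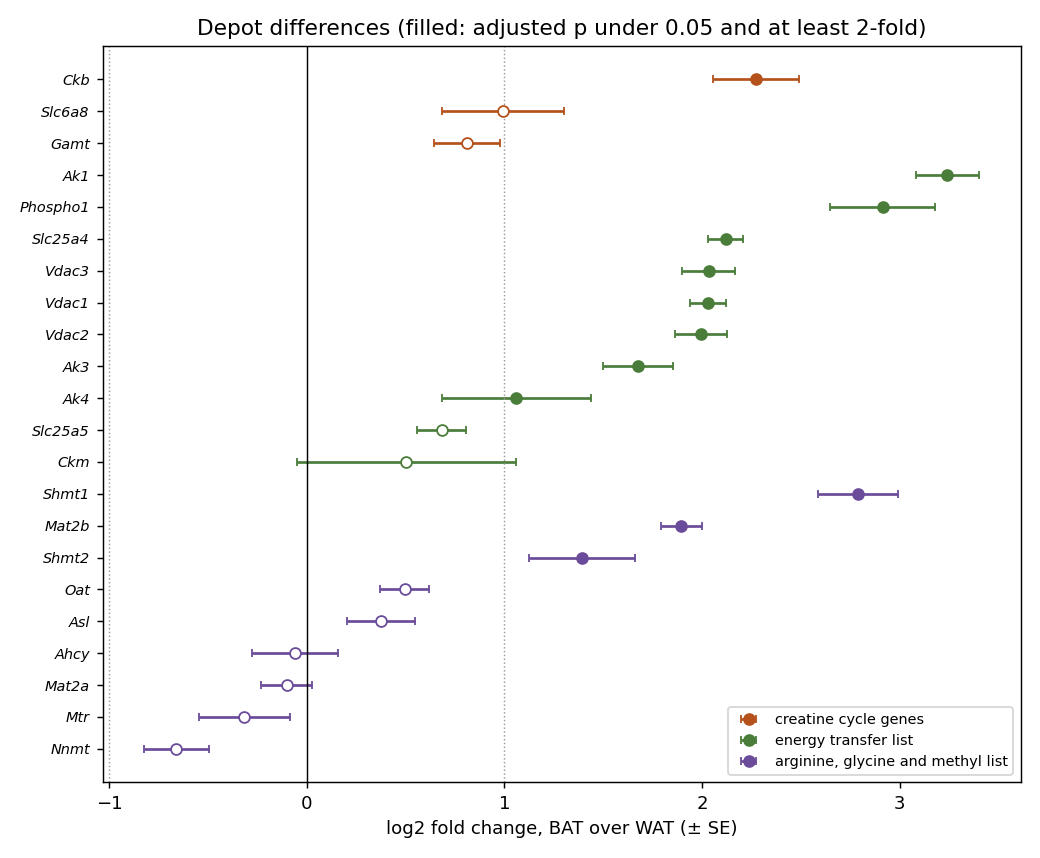
log2 fold change of BAT over WAT with its SE for the 3 creatine cycle genes tested, and the genes reported here from the energy transfer list and the arginine, glycine and methyl list; filled symbols passed adjusted p under 0.05 and the 2-fold threshold, drawn as dotted lines. Ckb, at 2.27, lies in the range of the called energy transfer genes, and Slc6a8 and Gamt lie just under 1.

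Around the day, Ckb followed different courses in the depots. In BAT, Ckb had 361, 285 and 247 CPM at ZT1, 528, 349 and 772 at ZT5, 514, 842 and 923 at ZT9, 605, 651 and 629 at ZT13, 801 and 656 at ZT17, and 436, 833 and 140.0 at ZT21. In WAT it had 102, 112 and 76.6 CPM at ZT1, 76.3, 63.5 and 102 at ZT5, 95.7, 47.9 and 140 at ZT9, 101, 51.2 and 112 at ZT13, 195, 99.7 and 194 at ZT17, and 229, 120 and 266 at ZT21. In CPM, BAT was thus low at ZT1 and high from ZT9 to ZT17, with a wide spread at ZT21. WAT was high in CPM at ZT17 and ZT21. On the authors' TPM scale the order of times was not the same. WAT had 106, 47.7 and 92.1 TPM at ZT17, around the 85.0, 101 and 75.1 TPM at ZT1. At ZT21 it had 121, 84.6 and 155 TPM. BAT had 313, 410 and 387 TPM at ZT9, and 470 and 385 TPM at ZT17.

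A 24 h cosine was fitted in each depot and called at an adjusted p under 0.05, which 9.17% of genes met in BAT and 9.9% in WAT. These shares rest on single libraries: the 1136 genes called in BAT were 460 without ZT1 replicate 2 and 3383 without ZT21 replicate 2, and the 1257 in WAT were 472 without ZT21 replicate 1 and 2519 without ZT9 replicate 3. In BAT none of the 4 members tested was called; Ckb had a peak-to-trough difference of 1.06 ± 0.38 log2 with its peak at ZT 12.2 (unadjusted p = 0.0361, adjusted p = 0.13). In WAT 1 of 4 members tested was called, Ckb, with 1.37 ± 0.34 log2 and its peak at ZT 19.4 (adjusted p = 0.0292). In the authors' deposited JTK_CYCLE tables Ckb had a q-value of 0.89 in BAT and 0.158 in WAT, where 609 of 14055 and 17 of 12541 genes had a q-value under 0.05.

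The WAT call was close to its threshold. It was lost when any 1 of 10 libraries was left out, namely ZT1 replicate 2, ZT5 replicates 1 and 2, ZT9 replicates 1 and 2, ZT13 replicate 3, ZT17 replicates 1 and 3 or ZT21 replicates 1 and 3 (adjusted p 0.0508 to 0.0988), while the difference stayed between 1.18 and 1.67 log2 over all 18 such fits. Without the 3 libraries richest in ribosomal RNA it was 1.92 ± 0.34 (adjusted p = 0.00137). In BAT, leaving out ZT21 replicate 2 raised the Ckb difference to 1.38, which was called (adjusted p = 0.0188) in the fit that called 3383 genes.

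The difference between the depots in the course of Ckb was tested directly. The fitted curves differed with an amplitude of 0.94 ± 0.25 log2, with BAT highest relative to WAT at ZT 9.61 (adjusted p = 0.034); 12.9% of genes were called in this test. The ratio of mean Ckb, BAT over WAT, was 3.07 at ZT1, 6.82 at ZT5, 8.04 at ZT9, 7.15 at ZT13, 4.47 at ZT17 and 2.29 at ZT21. The depots' libraries overlapped at ZT21 alone. The call was lost without any 1 of 8 libraries, BAT ZT1 replicate 2, ZT9 replicates 2 and 3, ZT21 replicates 1 and 3, or WAT ZT9 replicate 2 and ZT21 replicates 1 and 3 (adjusted p 0.0502 to 0.0794).

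Ckb moved with what else the libraries carried. Here and for Gatm above, levels were TMM-scaled CPM and shares were parts of unscaled counts. Library composition can therefore enter both sides through the scaling. Such relations were run for Ckb and Gatm alone, so they do not set Ckb apart from other genes. Across the 18 WAT libraries, log2 Ckb and the log2 share of mitochondrially encoded counts had a Pearson r of -0.84 (permutation p = 2e-05, adjusted over 15 relations 0.0003) and a Spearman rho of -0.82 (permutation p = 7e-05, adjusted 0.001). Without the 2 libraries farthest from the median share r was -0.74, and within times, after the mean of each time was taken off, it was -0.80. At ZT17 and at ZT21 in WAT, the library with the lowest Ckb, replicate 2 each time, had the highest mitochondrial share of its time, 9.11% and 9.43%.

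The share of fibroblast markers ran against Ckb in both depots. Pearson r was -0.74 in BAT (permutation p = 0.0011, adjusted 0.0043; rho -0.59, permutation p = 0.014, adjusted 0.031) and -0.69 in WAT (permutation p = 0.0018, adjusted 0.0054; rho -0.66, permutation p = 0.0036, adjusted 0.014). Without the 2 farthest libraries r was -0.46 in BAT and -0.65 in WAT, and within times -0.76 in BAT and -0.82 in WAT. BAT ZT21 replicate 3, the library with the lowest Ckb in BAT, had the most fibroblast marker RNA of that depot, 42.0 CPM. In BAT, Ckb also ran with the share of ribosomal RNA loci (r = 0.72, permutation p = 0.0011, adjusted 0.0043; rho 0.78, permutation p = 0.00035, adjusted 0.0026; r = 0.72 without the 2 farthest and 0.79 within times).

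Ckb ran with the summed share of the 6 adipocyte markers, a relation added after the others. Most of this sum was Fabp4, with a mean of 36810 CPM in BAT and 32810 CPM in WAT. The means of the whole sum were 38530 CPM and 34200 CPM, so the relation speaks mainly to Fabp4. In WAT r was 0.75 (permutation p = 0.00032, adjusted 0.0024) and rho 0.75 (permutation p = 0.00053, adjusted 0.0026), with r = 0.87 without the 2 farthest libraries and 0.74 within times. In BAT r was 0.52 (permutation p = 0.033, adjusted 0.083) and rho 0.60 (permutation p = 0.013, adjusted 0.031), with r = 0.51 without the 2 farthest and 0.40 within times. The 4 WAT libraries with the most Ckb, replicates 1 and 3 of ZT17 and ZT21, had 65890 to 73720 CPM of adipocyte markers in a WAT range of 8786 to 73720 CPM. As shares of counts, these 4 had 4.88% to 6.73%. The highest WAT share, 7.3%, was in ZT1 replicate 2, where Ckb had 112 CPM, near its WAT median of 102 CPM.

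The part of these shares in the Ckb rhythm was not tested. With library sizes that leave out mitochondrial and ribosomal RNA genes, Ckb had a peak-to-trough difference of 1.25 ± 0.33 in WAT (adjusted p = 0.0459) and a difference of curves of 0.92 ± 0.25 (adjusted p = 0.035). This setting does not hold the shares equal across libraries, so it cannot decide their part.

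**Figure D3:**
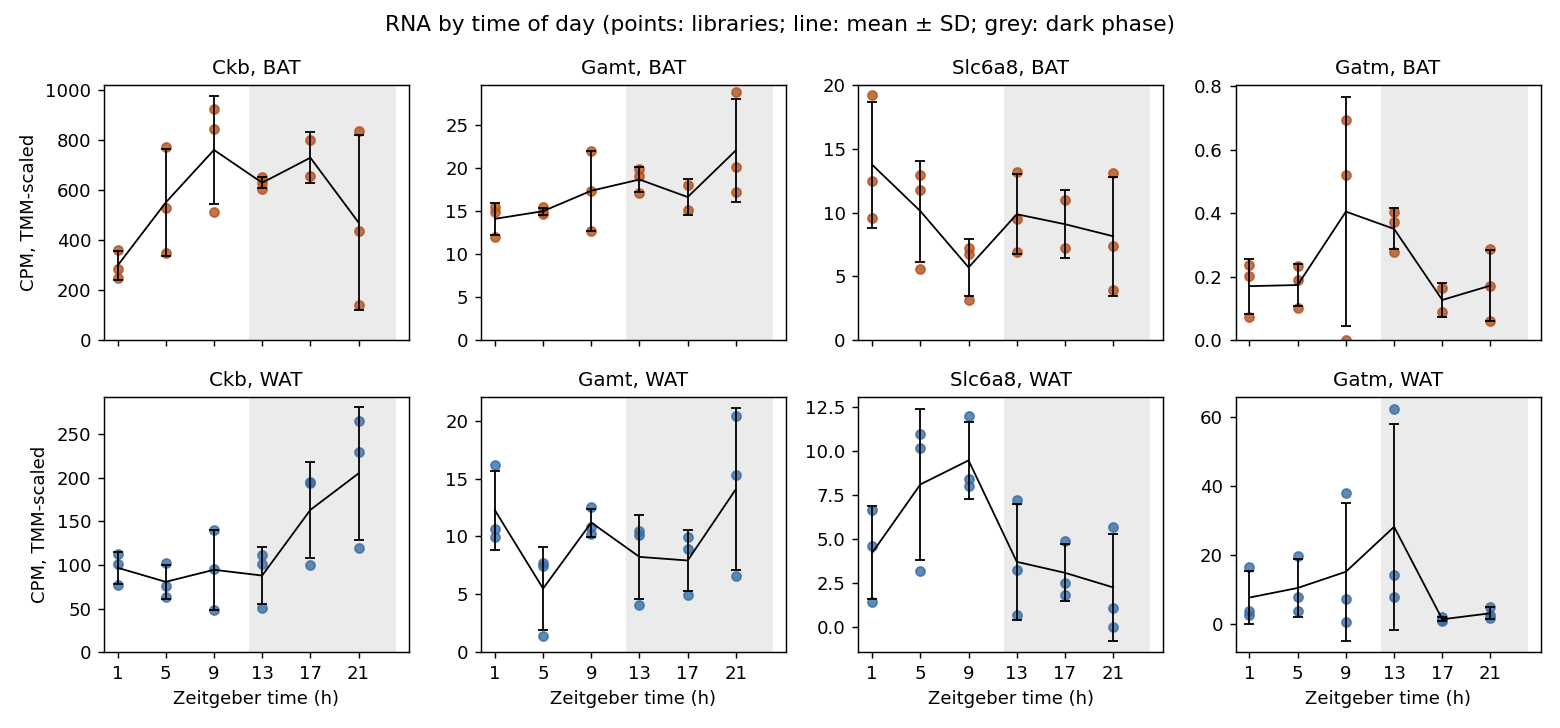
CPM of Ckb, Gamt, Slc6a8 and Gatm by Zeitgeber time, BAT above WAT, with one point per RNA library, a line through the means and bars of ± SD (n = 3, and 2 in BAT at ZT17); the dark phase is grey. The highest Ckb means are at ZT9 in BAT (760 CPM) and ZT21 in WAT (205 CPM), and the Gatm scale in BAT ends below 1 CPM.

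Over the 12 combinations of depot and time, mean Ckb ran from 760 ± 217 CPM in BAT at ZT9, through BAT at ZT17 (728 ± 102, n = 2), ZT13 (628 ± 22.7), ZT5 (550 ± 212), ZT21 (470 ± 348) and ZT1 (298 ± 58.4), to WAT at ZT21 (205 ± 75.8), ZT17 (163 ± 54.9), ZT1 (96.9 ± 18.3), ZT9 (94.5 ± 46.0), ZT13 (87.9 ± 32.2) and ZT5 (80.7 ± 19.7) (SD, n = 3 otherwise). Neighbours in this order overlapped in range, except BAT at ZT17 over BAT at ZT13.

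The other members showed no called rhythm. Slc6a8 averaged 13.8 ± 4.96 CPM at ZT1 and 5.71 ± 2.26 CPM at ZT9 in BAT, its highest and lowest times, for a fitted difference of 0.57 ± 0.37 (adjusted p = 0.493). In WAT Slc6a8 was highest at ZT9 (9.47 ± 2.19 CPM) and lowest at ZT21 (2.27 ± 3.02 CPM), for 1.82 ± 0.70 with a peak at ZT 7.20 (unadjusted p = 0.0486, adjusted p = 0.183). ZT9 was thus the one time at which all BAT libraries, at 3.12 to 7.24 CPM, lay below all WAT libraries, at 8.00 to 11.99 CPM. Its difference of rhythm between depots did not pass (1.08 ± 0.39, adjusted p = 0.122).

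Gamt had a fitted difference of 0.40 ± 0.20 in BAT (adjusted p = 0.302) and 0.66 ± 0.46 in WAT (adjusted p = 0.585), and its difference between depots was 0.33 ± 0.24 (adjusted p = 0.567). Ckmt2, tested in BAT alone, had 0.95 ± 0.94 (adjusted p = 0.72). Its highest BAT library, ZT13 replicate 3 with 7.50 CPM, stood beside 0.402 and 0.278 CPM in the other 2 libraries of that time.

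Gatm in WAT had 16.6, 2.84 and 3.90 CPM at ZT1, 7.80, 3.97 and 19.9 at ZT5, 38.0, 7.22 and 0.571 at ZT9, 8.08, 14.2 and 62.5 at ZT13, 1.36, 0.921 and 2.16 at ZT17, and 1.80, 5.10 and 2.79 at ZT21. All libraries at ZT17 lay below all at ZT1, ZT5 and ZT13. The cosine gave 2.76 ± 0.89 with a peak at ZT 9.18 (unadjusted p = 0.0169, adjusted p = 0.101). With time as a factor the test passed (largest difference of time means 4.14, adjusted p = 0.0399), as did the cosine without ZT1 replicate 1 (3.35, adjusted p = 0.0412), without ZT9 replicate 3 (3.17, adjusted p = 0.0182) or without the 3 libraries richest in ribosomal RNA (2.81, adjusted p = 0.0293).

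The dark phase (ZT13, ZT17 and ZT21) was also compared with the light phase (ZT1, ZT5 and ZT9), with lights off taken at ZT12 by convention. None of the 4 members tested was called in either depot, where 1.3% of genes were called in BAT and 7.5% in WAT. At an unadjusted p under 0.05 there was 1 in BAT, Gamt (0.29 ± 0.12 dark minus light, unadjusted p = 0.0309, adjusted p = 0.35), and there were 2 in WAT. These were Ckb (0.72 ± 0.23, unadjusted p = 0.0054, adjusted p = 0.0607) and Slc6a8 (-1.13 ± 0.53, unadjusted p = 0.0425, adjusted p = 0.184).

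DESeq2 called Ckb in WAT (0.67, adjusted p = 0.0453), as did the fits with the replicate number as a block (0.65, adjusted p = 0.0334), with no filter on low counts (0.66, adjusted p = 0.0321) and without the 3 libraries richest in ribosomal RNA (1.01, adjusted p = 0.00376). So did the fits without ZT9 replicate 3 (0.84, adjusted p = 0.0137), ZT13 replicate 2 (0.82, adjusted p = 0.0296), ZT17 replicate 2 (0.81, adjusted p = 0.0298) or ZT21 replicate 2 (0.82, adjusted p = 0.0306). These were 4 of 6 other settings and 4 of 18 fits with 1 library left out. In the rest Ckb stayed uncalled, with adjusted p up to 0.0743 in the other settings and 0.139 in the left-out fits. Of 6 fibroblast markers tested in WAT, 5 were lower in the dark phase. Their part in this result was not tested.

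Of the 10 energy transfer genes, 1 was rhythmic in WAT and none in BAT. This was Ak3, the adenylate kinase of the mitochondrial matrix (1.16 ± 0.31, peak at ZT 12.5). The rhythms of Ak3 (0.94 ± 0.21) and Phospho1 (1.24 ± 0.33) differed between depots, 2 of the 10 energy transfer genes. That of Mat2a (0.68 ± 0.16) did too, 1 of 9 tested in the supply list. The test of this difference called 12.9% of all genes. In the supply list, 1 of 9 genes was rhythmic in BAT, Mat2a (0.68 ± 0.17, peak at ZT 22.0), and 1 of 12 in WAT, Nnmt, which methylates nicotinamide (1.48 ± 0.39, peak at ZT 19.8). The counts of rhythmic genes are close to the shares of all genes given above, 9.17% in BAT and 9.9% in WAT. In lists this small, these counts and those of differing rhythms say nothing particular about the lists. As clock landmarks, Dbp peaked at ZT 10.2 in BAT (3.36 ± 0.33) and ZT 10.6 in WAT (3.24 ± 0.33), and Arntl, the gene of BMAL1, at ZT 0.05 in BAT (4.92 ± 0.54); in WAT Arntl was not called (1.60 ± 0.89, adjusted p = 0.439).

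The genes whose log2 CPM followed Ckb most closely were, over the 17 BAT libraries, Cox14 (Pearson r = 0.95), Mpnd (0.95), Gcat (0.94), Rad9b (0.94) and Rab17 (0.94). Over the 18 WAT libraries they were Etfb (0.97), Imp3 (0.97), Mt1 (0.97), Uqcrh (0.96) and Timm13 (0.96), and over the 12 means of depot and time Rad9b (0.99), Cox5a (0.98), Fahd1 (0.98), Mt1 (0.98) and Pptc7 (0.98). These were the highest among genes of at least 10 CPM, and the points share library depth and composition.

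ATAC-seq placed few accessible regions at the members' starts. Ckb (chromosome 12, 111669355 to 111672338, minus strand) had 2 regions in each depot, both in the annotation class of the transcription end. The first lay 3216 bp downstream of the start in BAT (chr12:111669047-111669197) and 3215 bp in WAT (chr12:111669048-111669198), and the second 3749 bp in both (chr12:111668514-111668664). No listed region overlapped the Ckb promoter printed above in either depot.

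Gamt (chromosome 10, 80258151 to 80261025, minus strand) had a region over its start in both depots, with a peak score of 117 in BAT and 85 in WAT, at the 95.4th and 97.8th percentile of its depot. These scores are the authors' and rank regions within 1 depot. Slc6a8 (chromosome X, 73673133 to 73682502, plus strand) had a region at its start in BAT (29 bp upstream, score 20.8) and 2 more downstream, and none listed within 10 kb in WAT. Gatm (chromosome 2, 122594473 to 122611277, minus strand), with 778 counts over the WAT RNA libraries, had no listed region within the gene or 10 kb of it in either depot, and its one assigned region, in BAT, lay 35582 bp downstream of the start.

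The remaining regions were spread over introns or lay upstream. Alpl (chromosome 4, 137741731 to 137796384, minus strand) had 7 in BAT and 2 in WAT, and Ckmt2 (chromosome 13, 91853386 to 91876923, minus strand) had 4 in BAT and 3 in WAT, all at -31526 bp or farther from its start and within introns of another transcript. Ckmt1 (chromosome 2, 121357773 to 121363737, plus strand) had 1 in each depot, at -2397 bp in BAT and -2377 bp in WAT.

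**Figure D4:**
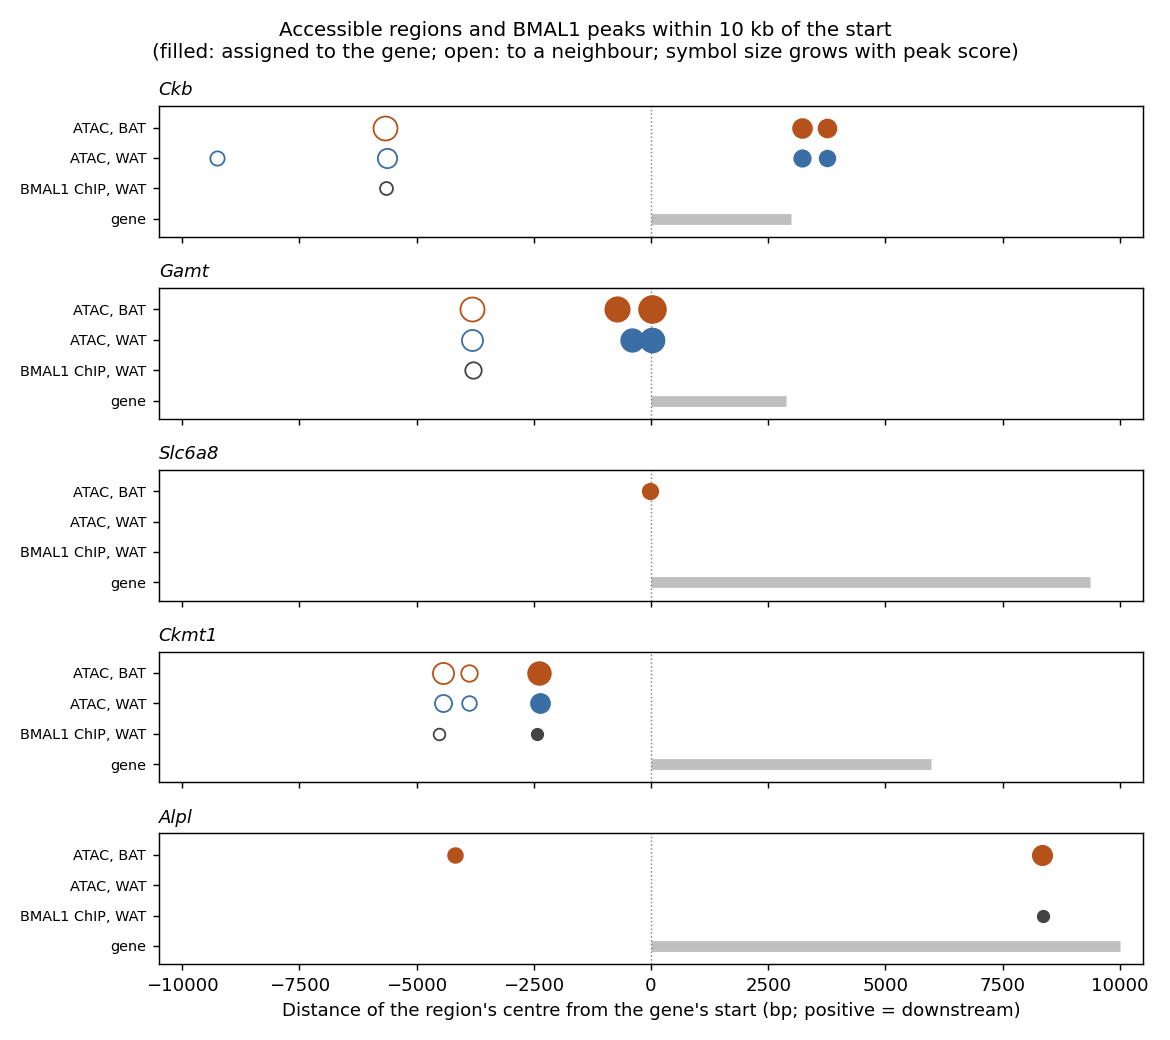
Accessible regions of BAT and WAT and BMAL1 peaks of WAT within 10 kb of the start of 5 creatine cycle genes, by the distance of their centre from the start; grey bars are the genes, filled symbols are assigned to the gene and open ones to a neighbour, and symbol size grows with peak score. Gamt has regions over its start in both depots, Slc6a8 in BAT alone, and the regions assigned to Ckb lie past its end, with those upstream of it assigned to Trmt61a.

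Regions called in both depots, by an overlap of at least 75 bp, allowed the depots to be compared at 7 of the 21626 shared regions, those assigned to the creatine cycle genes. None reached a 2-fold difference with an adjusted p under 0.05, which 7.13% of shared regions did, 3.58% in the direction of BAT. By adjusted p alone 75.3% of shared regions differed. The Ckb regions were close to equal: 31.7 ± 3.52 CPM for BAT and 34.3 ± 5.48 CPM for WAT at the first (± SD over 18 libraries of each depot), and 26.9 ± 1.93 CPM in BAT and 29.1 ± 3.83 CPM in WAT at the second. The differences were -0.12 ± 0.06 log2 for each (adjusted p = 0.0879 and 0.0546), beside the RNA difference of 2.27.

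The Gamt start was less accessible in BAT (92.2 ± 7.83 CPM) than in WAT (115.6 ± 9.01 CPM), by -0.33 ± 0.03 log2 (adjusted p = 3.33e-11), while its RNA was higher in BAT. The Alpl region at -4656 bp from the nearest annotated start, in intron 1 of the longer transcript, differed most, at 12.9 ± 5.57 CPM in BAT and 22.8 ± 4.49 CPM in WAT (-0.81 ± 0.13, adjusted p = 5.25e-07). A Ckmt2 region was higher in BAT (0.41 ± 0.07, adjusted p = 1.39e-06), where the 2 depots' windows were shifted by 70 bp, and another was lower (-0.17 ± 0.07, adjusted p = 0.0291). The Ckmt1 region did not pass (-0.02 ± 0.04, adjusted p = 0.685).

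By the same 24 h cosine, 4 of the 20 regions of the creatine cycle genes were rhythmic in BAT, where 18.9% of all regions were, and 1 of 10 in WAT, where 15.8% were. Both shares are near those of all regions. In the authors' deposited JTK_CYCLE tables none of these 5 regions had a q-value under 0.05 (0.0583 for Ckb in WAT, 0.0547 for Gatm, and 0.128, 0.149 and 0.239 for Alpl at -2638, 12253 and -4656 bp). The WAT region was the first one at the end of Ckb. It had 28.9, 24.3 and 32.0 CPM at ZT1, 28.2, 34.9 and 29.5 at ZT5, 29.8, 34.7 and 38.0 at ZT9, 37.4, 37.0 and 37.1 at ZT13, 31.7, 25.6 and 36.5 at ZT17, and 24.3, 24.9 and 27.8 at ZT21. It was highest at ZT13 and lowest at ZT21, for 0.47 ± 0.12 log2 with a peak at ZT 11.04 (adjusted p = 0.0234), while Ckb RNA in WAT peaked at ZT 19.4. The call was lost without ZT21 replicate 1 (adjusted p = 0.05004) or replicate 2 (adjusted p = 0.0567) and with time as a factor (adjusted p = 0.0749). In BAT the same region had 0.20 ± 0.11 log2 (adjusted p = 0.388), and the difference between depots in this rhythm was not tested. The WAT region of Alpl at 12485 bp just missed the threshold (0.40 ± 0.12, adjusted p = 0.052). It was called with time as a factor (adjusted p = 0.00436), and without ZT1 replicate 1, ZT9 replicate 2 or ZT13 replicate 2 (adjusted p 0.0105 to 0.0491). The Alpl region at -4655 bp in WAT was called without ZT17 replicate 1 alone (0.64, adjusted p = 0.0136).

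In BAT the rhythmic regions belonged to Gatm and Alpl. The Gatm region downstream had 0.66 ± 0.15 log2 with a peak at ZT 16.3 (adjusted p = 0.0102), although Gatm RNA in BAT did not exceed 0.693 CPM. It was lowest at ZT5, at 9.99, 10.0 and 9.16 CPM, and at 14.2, 15.9 and 14.8 CPM at ZT13. For Alpl, an intron region 12253 bp downstream of its nearest annotated start, with a score of 95.9, had 0.52 ± 0.13 log2 with a peak at ZT 21.4 (adjusted p = 0.027). It had 63.4, 63.2 and 63.6 CPM at ZT1, against 40.1, 37.1 and 36.1 CPM at ZT9. Alpl regions at -2638 and -4656 bp had 0.66 ± 0.18 with a peak at ZT 18.3 (adjusted p = 0.0402) for the one nearer the start and 1.10 ± 0.31 with a peak at ZT 21.4 (adjusted p = 0.0388) for the one farther away.

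The Gatm call held without any single library. The Alpl region at 12253 bp lost its call without ZT9 replicate 2 or 3 (adjusted p 0.0578 to 0.0608). The one at -2638 bp lost it without any 1 of 10 libraries (ZT1 replicate 2, ZT5 replicate 1, ZT9 replicates 1, 2 and 3, ZT13 replicates 2 and 3, ZT17 replicates 1, 2 and 3; adjusted p 0.0512 to 0.106). The one at -4656 bp also lost it without any 1 of 10 (ZT1 replicates 1 and 2, ZT5 replicate 2, ZT9 replicates 1, 2 and 3, ZT13 replicates 1, 2 and 3, ZT21 replicate 3; adjusted p 0.0526 to 0.0896).

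**Figure D5:**
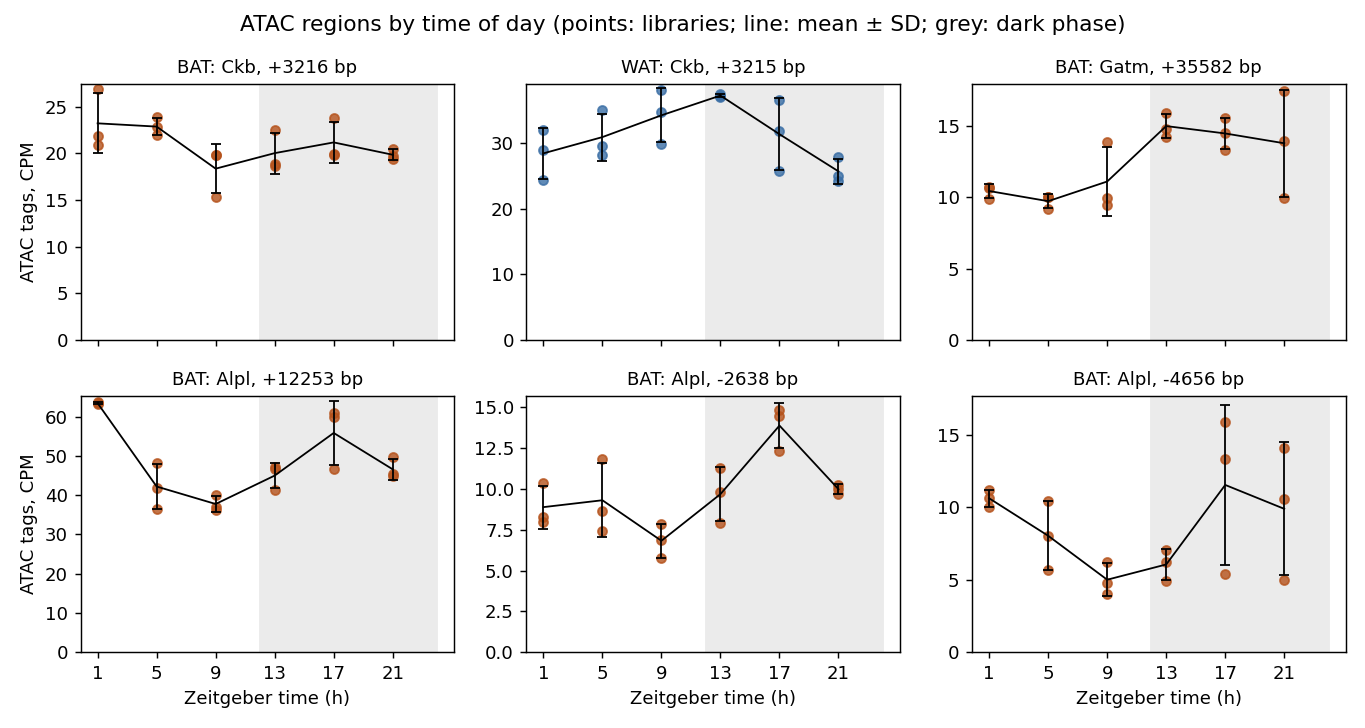
ATAC tags in CPM by Zeitgeber time at the first region past the end of Ckb in BAT and WAT, and at the Gatm and 3 Alpl regions called rhythmic in BAT; each point is a library, with a line through the means and bars of ± SD (n = 3 per time), and the distance to the nearest annotated start in the title. The Ckb region in WAT is highest at ZT13 and the Alpl region at 12253 bp in BAT is highest at ZT1.

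BMAL1 peaks were assigned to 2 members and ranked low. The Alpl peak in the first intron (chr4:137787910-137788122, score 5.48, rank 6201 of 10368) overlapped a BAT accessible region by 150 bp, and no WAT region. That region had no called 24 h cosine (0.03 ± 0.12, adjusted p = 0.974) and was called with time as a factor (adjusted p = 0.0437). The Ckmt1 peak (chr2:121355240-121355452, score 5.31, rank 6542) overlapped the accessible region of both depots, by 148 bp in BAT and 128 bp in WAT. Both scores are below the median of 6.16. The clock gene Nr1d1 held the first rank with 201.

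No BMAL1 peak was assigned to Ckb, Gamt, Slc6a8, Gatm or Ckmt2 by gene name. The nearest to the start of Ckb lay at -5649 bp (chr12:111677881-111678093, score 9.93, rank 1402) and is assigned to Trmt61a, a neighbouring tRNA methyltransferase gene. It coincided with accessible regions of both depots that had no called rhythm (0.12 ± 0.08 in BAT, adjusted p = 0.489; 0.05 ± 0.10 in WAT, adjusted p = 0.922). The nearest to the start of Gamt lay at -3790 bp (chr10:80264709-80264921, score 26.0, rank 109) and is assigned to Dazap1. It too coincided with accessible regions with no called rhythm (0.14 ± 0.09 in BAT, adjusted p = 0.427; 0.02 ± 0.09 in WAT, adjusted p = 0.981). For Gatm, Slc6a8 and Ckmt2 the centres of the nearest peaks lay at -91429, 113954 and 416288 bp from the start.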

How the data were processed

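Ribosome-bound RNA and ATAC-seq of sorted nuclei were compared between BAT and WAT and over 6 times, and BMAL1 ChIP-seq was used for description. The authors deposited estimated counts per Ensembl gene (unnormalized), TPM with a JTK_CYCLE p-value and q-value per gene, raw tag counts per 150 bp region with the HOMER peak score on mm10 per the file headers, JTK_CYCLE p-values per region, and, for BMAL1, a peak score and log2 tags scaled to a fixed total per library per the file headers. Tools named, without steps, in the submitters' processing notes are Bowtie2 2.4.1, RSEM 1.3.0, STAR 2.7.5, HOMER, limma and DESeq2. Strand use in counting, and the versions of HOMER and JTK_CYCLE, are not given in the sources used here. In the authors' BAT TPM table, 1 column of no listed sample was not used.

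Expected counts were rounded. In R 4.3.3, edgeR 4.0.16 scaled by TMM, filtered by filterByExpr (over depots for tests between depots, and over times within a depot) and fitted quasi-likelihood models, with Benjamini-Hochberg adjustment over all features tested: 10999 genes between depots, 12394 in BAT, 12703 in WAT. Depots were compared with time as a factor; rhythms as a cosine and sine of 24 h, tested together; their difference by the interaction with depot. The SE is the effect divided by the square root of F, or of 2F for a rhythm. Levels are CPM scaled over all RNA libraries; ATAC CPM are scaled within a depot, or over both depots in the depot comparison. Correlations used permutation tests of 100000 resamples. DESeq2 1.42.0 and limma 3.58.1 gave alternatives. Overlaps needed at least 75 bp. Plots come from matplotlib 3.10.9 under Python 3.11.15. The scripts were tested on simulated data. Within a depot, deviations of same-numbered libraries at different times had a median correlation of 0.08 in BAT RNA and 0.03 in WAT RNA. Differently numbered libraries had medians of -0.04 and -0.02. Of the same-numbered pairs, 19 of 40 in BAT and 15 of 45 in WAT were above 0.1. Replicate numbers were not used as a block in the main fits. Pairing of BAT with WAT libraries of the same time and number was not examined, and the depots were treated as unpaired.

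All 7 members are named with their values. Other genes named are the called genes of the lists, at most 4 per list by absolute log2, the 5 most like Ckb by Pearson r in each set of libraries, and Ucp1, Dbp and Arntl. Ass1 and Gnmt were named outside this rule, after their values were seen. Some genes of the lists are not reported here, and the lists' counts and medians leave them out. The members and lists were chosen with earlier results of these data known.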

Additional observations from a re-analysis of the deposited data

Results flagged for a closer look

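The course of Ckb RNA over the day differed between depots by a direct test of the difference. The fitted 24 h curves of BAT and WAT differed with an amplitude of 0.936 log2 (SE 0.253, edgeR adjusted p = 0.034), and BAT was highest relative to WAT at ZT 9.61. The ratio of means, BAT over WAT, was 8.04 at ZT9 and 2.29 at ZT21, where the BAT libraries ran from 140.0 to 833 CPM. The call was lost without any 1 of 8 libraries (adjusted p 0.0502 to 0.0794), and 12.9% of all genes were called in this test.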

How the results depend on the processing

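The call of Ckb between depots held under all alternatives run (2.17 to 2.36 log2 when 1 library was left out). The number of members called between depots, 1, was 4 with no filter on low counts and 4 with genes kept by depot and time (an alternative chosen after seeing the data, which Gatm passes only through WAT libraries), 2 without mitochondrial and ribosomal RNA genes, 2 without the 3 WAT libraries richest in ribosomal RNA, 2 with limma voom and 3 with no fold threshold, and ran from 1 to 2 with 1 library left out. Rhythmic members in BAT RNA, 0, were 1 with no filter and 0 to 1 with a library left out. In WAT RNA, 1, they were 2 with no filter, DESeq2, time as a factor or without those 3 libraries, and 0 to 2 with a library left out. Ckb there ranged from 1.18 to 1.67. Members whose rhythm differed between depots, 1, were 0 to 1 with a library left out, and Ckb ranged from 0.834 to 1.15. Members differing between dark and light in WAT, 0, were 1 with no filter, DESeq2, the replicate block or without the 3 libraries, and 0 to 1 with a library left out; in BAT they stayed at 0, as did called regions between depots. Rhythmic regions of these genes in BAT, 4, were 7 with time as a factor, 2 within 10 kb of a start, and 1 to 4 with a library left out. Those in WAT, 1, were 2 with RLE size factors or DESeq2, and 0 to 2 with a library left out. With time as a factor the 1 called in WAT was the Alpl region at 12485 bp in place of the Ckb region. BMAL1 peaks at members, 2, were 0 at or above the median score. The cause of these changes was not tested, other than the genes and regions that each filter admits or drops.

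With the replicate number as a block, Ckb in WAT dark minus light was called at 0.65 log2 (adjusted p = 0.0334), and no other call of a member changed; the block gave 2.32 for Ckb between depots, 1.38 for its WAT rhythm and 0.91 for the difference of rhythm. Ckmt2 in BAT dark minus light, -0.07, turned to 0.0476 under the block. Uncalled dark-minus-light differences near 0 changed sign when a library was left out: Ckmt2 in BAT ranged from -1.06 to 0.49, Slc6a8 in BAT from -0.23 to 0.0583 and Gamt in WAT from -0.00906 to 0.24. Over all genes, leaving out 1 library moved the number of called differences of rhythm, 1418, between 571 (without BAT ZT9 replicate 3) and 3015 (without WAT ZT9 replicate 3), and of dark-light differences between 59 (without BAT ZT17 replicate 2) and 194 in BAT and between 188 (without WAT ZT1 replicate 3) and 2013 (without WAT ZT9 replicate 3) in WAT. Of 1501 other values of single genes and regions, 1407 kept their side of the threshold and direction. Ckmt1, Alpl and, in single depots, Gatm and Ckmt2 had too few counts to test.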
